A study of Homo sapiens with 18 samples.

Results

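H3K27me3, the trimethylation of lysine 27 on histone H3, was followed along chromosome 19 outside its zinc finger genes in leukemia cells treated with an immunoproteasome inhibitor. The loci were chosen by position: overlapping intervals of the H3K27me3 count files were merged into loci, and those on chromosome 19 were kept if they overlapped no gene body whose symbol is ZNF followed by digits (GENCODE release 44, hg38). This gave 601 of the 13899 H3K27me3 loci of the genome. Of the remaining chromosome 19 loci, 15 were left out for lying over ZNF genes, 13 of them over ZNF536, although the chromosome carries 300 such genes. Each locus was given the count of its widest interval. Chromosome 19 was taken with its H3K27me3 shift under treatment already known, so the direction of that shift is a description and no independent support.

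The cells were MOLM-13, an established human acute myeloid leukemia line with a KMT2A rearrangement. They were treated with 100 nM PR-957 (ONX-0914), an inhibitor of the immunoproteasome subunit PSMB8, or with DMSO alone. The treatment time is 72 h in the sample labels, whereas a legend of the study's supplement gives a shorter one for Cut&Tag. Cut&Tag, in which an antibody directs a transposase to cut and tag DNA beside a histone modification, was done for H3K27me3, H3K4me3, H3K27ac and H3K4me1 with 2 libraries per treatment each. The H3K27me3 libraries held 10032503 to 12047958 counts over all intervals, which overlap, so that the same stretch can be counted more than once. With 1 interval per locus, as in the test, they held 2644014 to 3235087. All groups are 1 cell line, and the labels do not say whether the 2 libraries of a group came from separate cultures, so that p-values measure the spread between these libraries, which may be technical. A lower count at a locus can stem from fewer cells with the mark or from less mark per cell, and these cannot be told apart here. As a check of the cell type, an H3K4me3 locus lay within 2 kb of the TSS of 8 of 9 myeloid and KMT2A leukemia markers (all but MPO), of 2 of 4 T cell, 2 of 3 B cell, 0 of 3 erythroid and 2 of 3 epithelial markers.

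H3K27me3 is written by Polycomb repressive complex 2 and lies over genes kept silent in a cell type, most densely over the promoters of developmental regulators. CpG islands, stretches of DNA rich in unmethylated CG dinucleotides, are the places where mammalian Polycomb complexes are commonly found. The KRAB zinc finger clusters of chromosome 19 are better known for H3K9me3, another repressive mark. H3K4me3 marks promoters, H3K27ac active promoters and enhancers, and H3K4me1 enhancers. A promoter that carries both H3K27me3 and H3K4me3 is called bivalent, although counts from a cell population do not show whether both lie on the same molecules.

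The promoters of 5 genes are shown because the loci around them span the behaviours described below. HCN2 lies in a locus that was higher in PR-957, NFIX and TSHZ3 in loci that were lower, EFNA2 in the second widest locus of the chromosome, and IFNL2 in a locus of an interferon gene with few CG dinucleotides. Each sequence is the 250 bases before the RefSeq start (GRCh38.p14), 5′ to 3′ on the strand of the gene, with every CG dinucleotide in capitals.
HCN2 (chr19:589631-589880, plus strand): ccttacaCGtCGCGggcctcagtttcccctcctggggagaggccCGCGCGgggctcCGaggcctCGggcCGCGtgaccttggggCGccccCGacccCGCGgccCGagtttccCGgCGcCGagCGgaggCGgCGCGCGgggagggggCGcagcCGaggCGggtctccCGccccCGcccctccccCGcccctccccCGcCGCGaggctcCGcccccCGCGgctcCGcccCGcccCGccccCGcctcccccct
EFNA2 (chr19:1285623-1285872, plus strand): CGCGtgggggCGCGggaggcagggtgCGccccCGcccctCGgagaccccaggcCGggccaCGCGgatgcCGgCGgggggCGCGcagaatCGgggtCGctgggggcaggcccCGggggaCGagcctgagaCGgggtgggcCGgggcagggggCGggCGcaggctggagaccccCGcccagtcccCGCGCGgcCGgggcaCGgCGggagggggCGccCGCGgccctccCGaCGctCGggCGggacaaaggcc
NFIX (chr19:12995225-12995474, plus strand): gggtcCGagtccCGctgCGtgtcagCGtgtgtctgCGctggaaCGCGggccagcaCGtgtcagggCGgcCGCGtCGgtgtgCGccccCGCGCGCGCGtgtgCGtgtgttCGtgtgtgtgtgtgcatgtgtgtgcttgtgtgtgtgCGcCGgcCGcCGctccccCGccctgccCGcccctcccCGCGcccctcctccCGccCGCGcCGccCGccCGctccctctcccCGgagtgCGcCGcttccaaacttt
TSHZ3 (chr19:31349437-31349686, minus strand): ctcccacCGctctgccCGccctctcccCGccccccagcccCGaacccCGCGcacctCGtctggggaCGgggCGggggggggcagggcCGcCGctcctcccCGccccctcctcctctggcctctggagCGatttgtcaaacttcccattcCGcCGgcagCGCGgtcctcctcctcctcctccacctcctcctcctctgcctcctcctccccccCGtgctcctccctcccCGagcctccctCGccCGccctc
IFNL2 (chr19:39268146-39268395, plus strand): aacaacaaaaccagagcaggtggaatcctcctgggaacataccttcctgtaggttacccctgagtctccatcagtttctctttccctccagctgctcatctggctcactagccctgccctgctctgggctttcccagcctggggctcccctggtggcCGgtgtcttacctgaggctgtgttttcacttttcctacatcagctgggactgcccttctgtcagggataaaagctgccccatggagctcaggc
The HCN2 promoter held 39 CG dinucleotides, EFNA2 36, NFIX 37, TSHZ3 21 and IFNL2 1. Other RefSeq starts of NFIX in the same locus are not shown, and their promoters held from 4 to 22. Of 34943 RefSeq promoters of the same length, 2.65% held at least as many as HCN2, 4.85% as EFNA2, 3.99% as NFIX, 30.2% as TSHZ3 and 93.9% as IFNL2. The 226 promoters that lie inside the widest interval of a chromosome 19 locus outside ZNF genes had a median of 15 CG dinucleotides, and so had the 1677 promoters of the chromosome outside these intervals. A count of CG dinucleotides is a description of the letters and no evidence of Polycomb binding.

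The 601 loci covered 3.51 Mb in all, and most were small. Their width ran from 556 to 83155 bp with a median of 2760 bp, and the mean count over the 4 libraries from 3 to 31537 with a median of 29.25. The counts were concentrated in a few domains. The 2 loci with the highest counts held 25.3% of all counts in these loci, the top 10 held 53.3%, and the lowest 300 held 2.07%. Of the 601 loci, 296 lay within 2 kb of a protein-coding TSS, 115 inside a gene body farther from its TSS, and 190 outside protein-coding genes. They reached the TSS of 288 of the 1476 protein-coding genes of the chromosome (19.5%).

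The widest locus, on chromosome 19 from 1707038 to 1790193, covers ONECUT3, which encodes a homeodomain transcription factor, and ATP8B3, a phospholipid-transporting ATPase. Its counts were 27214 and 32184 in DMSO and 31636 and 35114 in PR-957, which after TMM scaling were 11100, 10890, 10930 and 9854 CPM (counts relative to the effective library size). The libraries of both treatments overlapped, and the log2 fold change of PR-957 over DMSO was -0.08 (standard error 0.057, edgeR adjusted p = 0.723). The second widest, from 1277924 to 1345819, covers EFNA2, a ligand of Eph receptors, and had CPM of 8408 and 8369 in DMSO and 8870 and 8029 in PR-957. Here the PR-957 libraries lay on either side of both DMSO libraries. COMP, a cartilage matrix protein, lies in a locus from 18778060 to 18817546 with CPM of 2086 and 2128 in DMSO and 2255 and 2091 in PR-957, which overlapped as well. An intergenic locus from 1664459 to 1703319, 11844 bp from TCF3, had CPM of 1217 and 1178 in DMSO and 1365 and 1263 in PR-957. Both of its PR-957 libraries were above both DMSO libraries, but the difference did not pass (log2 fold change 0.13, edgeR adjusted p = 0.387).

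By count per length, the densest loci included those of APC2, a neural homologue of the Wnt regulator APC, with 493.8 counts per kb in DMSO, ONECUT3 with 396.3, EFNA2 with 340.3, and SLC17A7, which encodes a vesicular glutamate transporter, with 286. The APC2 locus had CPM of 5923 and 5721 in DMSO and 6618 and 5727 in PR-957, and the SLC17A7 locus 3206 and 3037 against 3263 and 2980, so both overlapped. None of these 4 dense loci passed with TMM. With library size alone all 4 passed as higher, with log2 fold changes of 0.29 at APC2, 0.12 at ONECUT3, 0.21 at EFNA2 and 0.20 at SLC17A7. With cyclic loess offsets all 4 passed as higher as well, with 0.395, 0.265, 0.342 and 0.276. Other settings moved them downward. With GC offsets and a replicate block ONECUT3 passed as lower (-0.184), and APC2 (-0.058), EFNA2 (-0.096) and SLC17A7 (-0.101) did not pass. Without PR-957 replicate 1 all 4 values were negative, -0.053 at APC2, -0.188 at ONECUT3, -0.093 at EFNA2 and -0.096 at SLC17A7.

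Of the 601 loci, 546 had enough counts to be tested, and 55 had not, the highest with a mean count of 14. With a false discovery rate of 0.05 over all 12355 tested loci of the genome, 6 of the 546 passed in edgeR, 3 higher and 3 lower in PR-957. Genome-wide, 4.03% of tested loci passed, 0.17% as higher and 3.86% as lower. Without adjustment, 46 of the 546 were higher and 8 lower at p under 0.05, where 2.69% of all tested loci were higher and 8.43% lower. Both PR-957 libraries lay above both DMSO libraries at 177 of the 546 loci and below them at 37, whereas over the genome the shares were 19.2% and 18.9%. Most differences were small, with 82.4% of the 546 loci within 1.5-fold of DMSO, the same share as over all tested loci (82.4%).

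**Figure D1:**
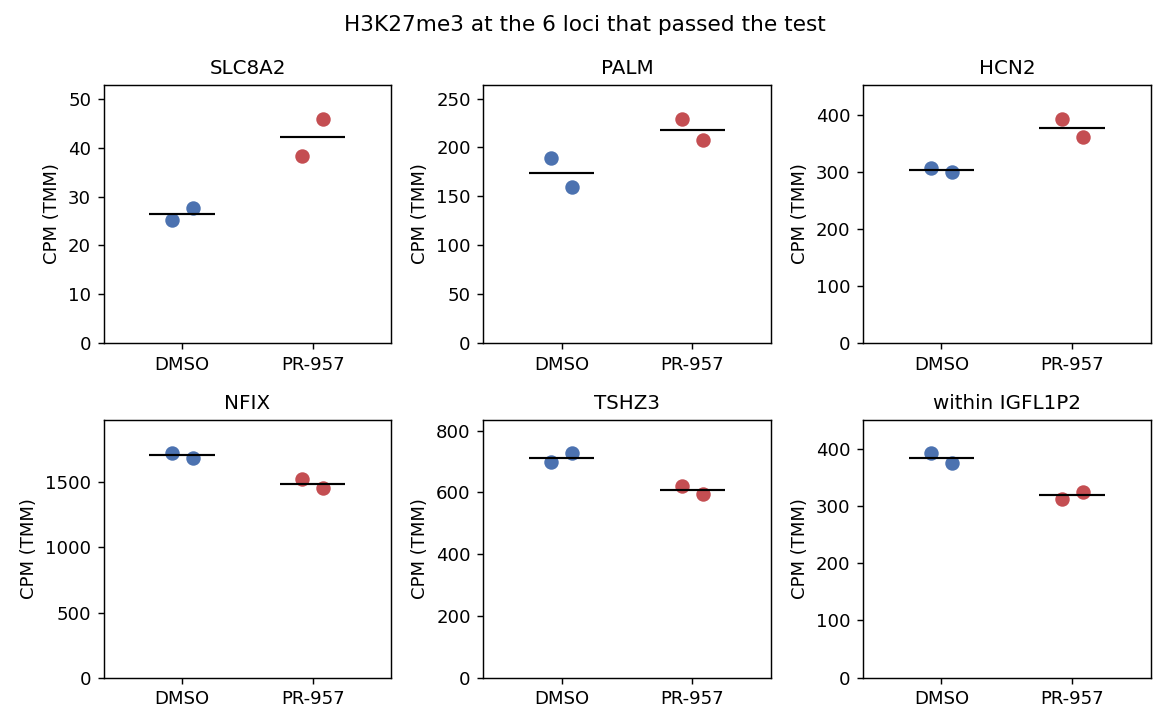
H3K27me3 in CPM after TMM scaling at the 6 chromosome 19 loci outside ZNF genes that passed the edgeR test. Each point is 1 library (blue DMSO, red PR-957), the line is the mean of the 2 libraries of a treatment, and every axis starts at 0. The libraries of both treatments do not overlap at any of the 6 loci, and the shift of SLC8A2, from 26.5 to 42.2 CPM, is the largest relative to DMSO.

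Of the 3 loci that rose, 2 belong to genes of the ion channel and neuronal list described further on. That list held 35 of the 546 tested loci and was drawn up with earlier results of these data known, so this is a description. At HCN2, a cation channel opened by hyperpolarization in heart and neurons, H3K27me3 had 307.1 and 300.2 CPM in DMSO and 393.3 and 360.3 in PR-957. Both treated libraries were above both controls, with a log2 fold change of 0.31 (standard error 0.081, edgeR adjusted p = 0.00503). With GC offsets the value was 0.16 and did not pass, and the call was also lost without DMSO replicate 1, DMSO replicate 2 or PR-957 replicate 1. The locus, from 584606 to 597465, contains the promoter printed above. PALM, which encodes the membrane-anchored protein paralemmin, had 189.2 and 159.4 CPM in DMSO and 229.5 and 207.1 in PR-957 from 716133 to 730595 (log2 fold change 0.33, standard error 0.096, edgeR adjusted p = 0.0207). It fell short with GC offsets (0.21), in DESeq2, and when DMSO replicate 2 (0.17), PR-957 replicate 1 (0.22) or DMSO replicate 1 (0.43) was left out. A second locus over the same gene, from 707053 to 715402, had 150.5 and 153.3 CPM in DMSO and 188 and 170.9 in PR-957, and did not pass (log2 fold change 0.24, edgeR adjusted p = 0.263). SLC8A2, a sodium/calcium exchanger of neurons, had the largest shift of the 6 at a locus within the gene body and within 2 kb of a GENCODE start of the gene, from 47445467 to 47451293, with 25.3 and 27.8 CPM in DMSO and 38.4 and 46 in PR-957 (log2 fold change 0.67, standard error 0.21, edgeR adjusted p = 0.0398). This locus did not pass with GC offsets, in DESeq2 or when any 1 of the 4 libraries was left out. The start that RefSeq gives for the gene lies in another locus, from 47466429 to 47472604, with 60.8 and 60.9 CPM in DMSO and 67.4 and 63.4 in PR-957 (log2 fold change 0.10, edgeR adjusted p = 0.938).

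Of the 3 loci that fell, 2 belong to transcription factors. NFIX, a CCAAT-binding nuclear factor I protein, lies in a locus from 12990712 to 13030583 with 1722 and 1690 CPM in DMSO and 1525 and 1454 in PR-957 (log2 fold change -0.20, standard error 0.063, edgeR adjusted p = 0.044). TSHZ3, a teashirt homeobox factor that has zinc fingers but no ZNF symbol, lies in a locus from 31342814 to 31368466 with 699.5 and 726.9 CPM in DMSO and 622.1 and 596.6 in PR-957 (log2 fold change -0.23, standard error 0.07, edgeR adjusted p = 0.0304). The other locus that fell contains the pseudogene IGFL1P2 and lies 11080 bp from HIF3A, from 46253510 to 46285962. It had 392 and 375.3 CPM in DMSO and 312.8 and 325 in PR-957 (log2 fold change -0.27, standard error 0.08, edgeR adjusted p = 0.027). In each of the 3 the libraries of both treatments were separate with TMM. None of the 3 passed with library size alone or cyclic loess offsets, where the log2 fold changes were 0.01 and 0.05 at NFIX, -0.02 and -0.03 at TSHZ3 and -0.06 and -0.10 at IGFL1P2, nor did any of them when either DMSO library was left out. With median-of-ratios factors the 3 values were -0.19, -0.22 and -0.26 and did not pass. Nor did any of the 3 pass with a mean count of at least 50 or with all intervals in the fit. The IGFL1P2 locus also did not pass in DESeq2. The loci that fell had a GC content of 55% at NFIX, 51.4% at TSHZ3 and 47.1% at IGFL1P2, and those that rose of 65.1% at HCN2, 61.6% at PALM and 55.9% at SLC8A2.

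The number of loci that passed moved with the scaling and the filter. With library size alone 63 of the 546 were higher and 0 lower, and with cyclic loess offsets 40 and 0. With GC offsets, which take out the trend with base composition fitted over all tested loci together, 0 were higher and 7 lower. With a mean count of at least 50 required for the fit, 41 and 0 of 227 were. Under the same settings the other chromosomes had 241 higher and 176 lower, 137 and 231, 7 and 696, and 125 and 358, of 11794 loci or, with the stricter minimum, 4076. Leaving out 1 library moved the number of calls on the other chromosomes as well as on chromosome 19. Such a fit leaves 1 treatment with 1 library, so its calls are not counted here. The median log2 fold change of the chromosome 19 loci minus that of all loci was 0.118 with none left out. It was 0.112 and 0.115 when the first or second DMSO library was dropped, and 0.114 and 0.147 for those of PR-957. The scaling also set the level of all loci, whose median log2 fold change was 0.03 with TMM and 0.24 with library size alone.

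The tested chromosome 19 loci as a group were shifted upward relative to the rest of the genome. Their median log2 fold change was 0.15, against 0.023 for the other chromosomes and 0.03 for all tested loci, a difference from all loci of 0.118. The 15 loci over ZNF genes had a median of -0.01. Among all chromosomes the whole of chromosome 19 had the highest median, 0.145, followed by chromosome 20 with 0.136 and chromosome 17 with 0.097. Between the 2 libraries of a treatment, the same difference from all loci was 0.009 in DMSO and -0.05 in PR-957. Counted by library, the 601 loci took 7.003% and 6.995% of all H3K27me3 locus counts in DMSO and 8.256% and 8.024% in PR-957, a mean of 6.999% ± 0.0059 (SD, n = 2) against 8.14% ± 0.164 (SD, n = 2). Without the 10 loci of highest count the shares were 3.20% and 3.86%. The treated libraries were above the controls in both cases, and the exact two-sided permutation test gave p = 0.333, the smallest that 2 libraries against 2 allow, so that the design cannot reach 0.05 for these values.

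**Figure D2:**
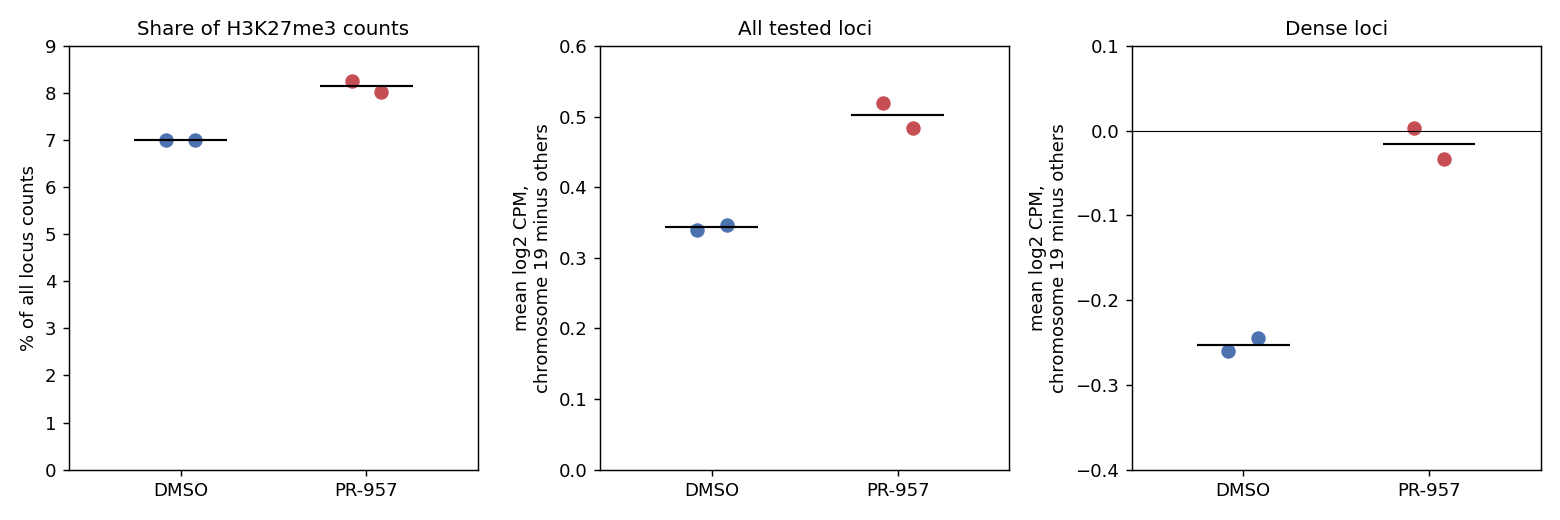
Values per H3K27me3 library (blue DMSO, red PR-957, line for the mean of 2 libraries): the percentage of all locus counts in chromosome 19 loci outside ZNF genes, and the mean log2 CPM of these loci minus that of the other chromosomes, for all tested loci and for dense loci with at least 50 counts per kb. The axes start at 0 except for the dense loci, where the difference runs from -0.26 and -0.25 in DMSO to 0.00 and -0.03 in PR-957.

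The distance between chromosome 19 and the other chromosomes was widest in dense domains. Loci were put into 4 classes by their mean count per kb over the 4 libraries, a division made after the data were seen. Among the loci with at least 50 counts per kb, 270 of 572 on other chromosomes were lower in PR-957 in edgeR (47.2%) and 3 higher, with a median log2 fold change of -0.22. On chromosome 19 outside ZNF genes 2 of 51 were lower (3.92%), NFIX and TSHZ3, and 1 was higher, HCN2, with a median of 0.03. These counts moved with the scaling: with library size alone 31 of the 51 were higher and 0 lower, against 86 and 134 of the 572, with cyclic loess offsets 28 and 0 against 88 and 139, and with GC offsets 0 and 6 against 1 and 354. With TMM, both PR-957 libraries lay below both DMSO libraries at 8 of these 51 loci, against 414 of the 572 (72.4%). In the class from 20 to 50 counts per kb the medians were 0.095 over 102 loci and -0.12 over 1823, and from 10 to 20 they were 0.18 over 224 and -0.01 over 5167. In the class under 10 counts per kb both rose together, to 0.41 over 169 tested loci and 0.29 over 4232.

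**Figure D3:**
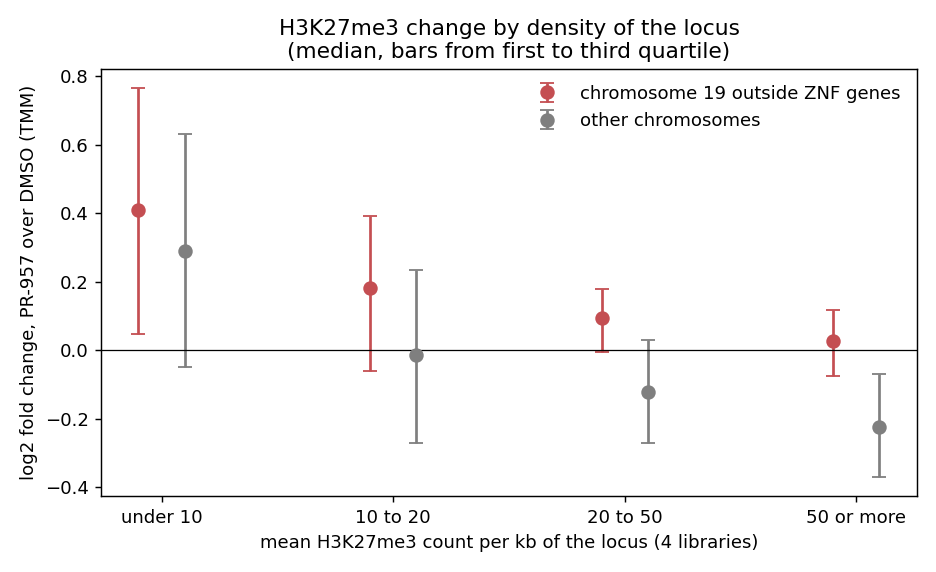
Median log2 fold change of H3K27me3, PR-957 over DMSO after TMM scaling, for loci grouped by mean count per kb. Points are medians and bars run from the first to the third quartile over loci, which are not replicates. Red points, chromosome 19 outside ZNF genes, fall from 0.41 to 0.03 with density, and grey points, the other chromosomes, from 0.29 to -0.22.

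Library by library, the mean log2 CPM of the 51 dense chromosome 19 loci minus that of the 572 dense loci elsewhere was -0.26 and -0.25 in DMSO and 0.00 and -0.03 in PR-957. The treatments did not overlap and the change was 0.237, which is a description, since both the chromosome and the density class were chosen with these values known. The difference between the 2 medians, 0.252, ran from 0.213 to 0.269 over 17 other settings, including each scaling named above. Its lowest value came without PR-957 replicate 1, where the medians were -0.069 for the dense chromosome 19 loci and -0.282 for those elsewhere.

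Dense loci also differed in base composition, which moved with the change. The dense chromosome 19 loci had a median GC content of 57.6%, against 52.9% elsewhere. From 50 to 55% GC, 2 of 13 dense chromosome 19 loci were lower in PR-957 (15.4%) and 108 of 196 elsewhere (55.1%), with medians of -0.09 and -0.28. From 55 to 60% GC, 0 of 29 and 26 of 121 (21.5%) were lower, with medians of 0.03 and -0.09, and at 60% or more 0 of 9 and 2 of 83 (2.41%), with medians of 0.14 and 0.01. No dense chromosome 19 locus had less than 50% GC, where 134 of 172 dense loci elsewhere were lower. With GC offsets the medians of the dense loci were -0.07 and -0.30, a distance of 0.23. These offsets follow the trend over all tested loci, so a steeper trend among dense loci would stay in this distance. Chromosome 16, whose dense loci had a median GC content of 60.9%, came next to chromosome 19 with a median of -0.01 and 5 of 29 lower, and chromosome 22 followed with -0.10 and 1 of 12 lower. Toward the other end of the order lay chromosome 5 with -0.36 and 21 of 36 lower, and chromosome 13 with -0.35 and 12 of 15.

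**Figure D4:**
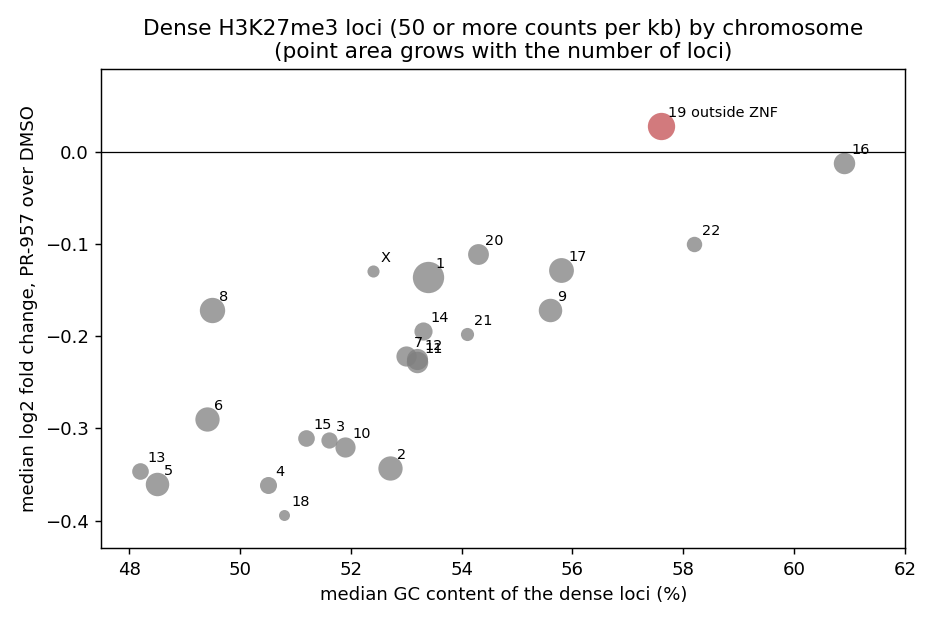
Dense H3K27me3 loci (at least 50 counts per kb) by chromosome, with the median GC content in % on the x axis and the median log2 fold change of PR-957 over DMSO on the y axis. Each point is 1 chromosome, its area grows with the number of dense loci, and red marks chromosome 19 outside ZNF genes. The medians are 0.03 at 57.6% GC for chromosome 19 and -0.01 at 60.9% GC for chromosome 16. They were not compared by a test.

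The dense loci were not alike along chromosome 19. Of the 14 that start before 3 Mb on the short arm, 9 had both PR-957 libraries above both DMSO libraries and 0 below, with a median of 0.14 and a median GC content of 60.2%. Of the 37 beyond, 5 were above and 8 below, with a median of -0.03 and 56.5% GC. Over all tested loci of the genome 19.2% were above and 18.9% below, and of the 572 dense loci elsewhere 36 and 414. This boundary was chosen after the values were seen, and the 2 groups were not compared by a test. Besides HCN2, the first group holds GRIN3B, an NMDA receptor subunit, with 337.3 and 340.8 CPM in DMSO and 413.3 and 365.4 in PR-957 (log2 fold change 0.20, edgeR adjusted p = 0.202). It also holds KISS1R, the kisspeptin receptor, with 181.9 and 179.4 against 201.5 and 195.9 (log2 fold change 0.14, edgeR adjusted p = 0.732). Among the 8 below were RGL3, a guanine nucleotide exchange factor for Ral, with 482.9 and 470.4 CPM in DMSO and 427.9 and 427.7 in PR-957, and CAMSAP3, a protein that binds microtubule minus ends, with 190.9 and 178 against 170.7 and 154.3. Neither of them passed.

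Loci were also set apart by width. Of those of 10 kb or wider, 2 of 90 on chromosome 19 were higher and 3 lower, with a median log2 fold change of 0.05, and on other chromosomes 7 of 1363 were higher and 364 lower, with a median of -0.14. Loci under 2 kb had medians of 0.27 over 152 and 0.18 over 3721 tested loci. The median was 0.14 for the 282 tested loci near a protein-coding TSS, 0.21 for 102 in gene bodies and 0.20 for 162 outside genes, whereas the other chromosomes had -0.07, 0.12 and 0.08. Near a TSS, both PR-957 libraries lay above DMSO at 99 of the 282 loci and below at 20, against 592 and 1311 of 4100 elsewhere.

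The gene lists were drawn up with earlier results of these data known, so their counts are descriptions. Developmental and lineage transcription factors had 21 loci at 17 of 37 listed genes. Of 20 tested, 0 were higher and 2 lower, NFIX and TSHZ3, where 0.17% and 3.86% of all tested loci were, with a median log2 fold change of 0.03. MEIS3, a TALE homeobox factor, lies in a locus shared with the far end of SLC8A2 from 47397760 to 47432054, with counts of 4069 and 4806 in DMSO and 5201 and 5538 in PR-957 (log2 fold change 0.03, edgeR adjusted p = 0.97). Ion channels and neuronal genes had 35 loci at 30 of 35 listed genes, with 2 higher, HCN2 and SLC8A2, and 0 lower, beside the same shares over all loci, and a median of 0.11. In the locus of KCNA7, a voltage-gated potassium channel, NTF4, a neurotrophin, and CGB7 and CGB8, which encode chorionic gonadotropin beta chains, the counts were 3098 and 3806 in DMSO and 3729 and 4226 in PR-957 (log2 fold change -0.05, edgeR adjusted p = 0.934). Over all 546 tested loci the median was 0.15, so neither list lay above it. The listed loci were denser, however, with medians of 33.2 and 27.4 DMSO counts per kb against 10.1 over all 601 loci. Among chromosome 19 loci of 20 to 50 counts per kb the median log2 fold change was 0.095.

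Kallikreins, pregnancy-specific glycoproteins, CEACAM, IGFL, CGB and galectin genes had 38 loci at 29 of 63 genes, with a median of 0.09. Of these loci 0 were higher and 1 lower (the IGFL1P2 locus), where 0.17% and 3.86% of all tested loci were. KLK4, a secreted serine protease, had 214.5 and 199.7 CPM in DMSO and 235.7 and 249.8 in PR-957 (log2 fold change 0.23, edgeR adjusted p = 0.178). Cytochrome P450 genes had 8 loci at 6 of 25 genes, of which 7 were tested and none passed, with a median of 0.10. Among them was CYP4F2, a fatty acid hydroxylase, with counts of 39 and 40 in DMSO and 44 and 64 in PR-957. The interferon lambda cluster, whose genes encode type III interferons, had 3 loci at 5 of 6 genes. IFNL2 had counts of 333 and 345 in DMSO and 354 and 420 in PR-957 (log2 fold change -0.07), the locus shared by IFNL3 and IFNL4 173 and 187 against 141 and 244 (-0.18), and a second IFNL3 locus 89 and 118 against 155 and 182 (0.45), and none of the 3 passed.

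Few leukocyte receptor genes, many of which lie in a cluster of the long arm, had an H3K27me3 locus. Of these, 2 of 74 listed genes had one, with 3 loci in all, none of which passed. CD22, an inhibitory receptor of B cells, had counts of 61 and 90 in DMSO and 76 and 94 in PR-957 in the larger of its 2 loci. Of 65 olfactory and pheromone receptor genes 1 had a locus, OR1I1, with counts of 15 and 13 against 22 and 12. No locus lay at the 54 genes of the imprinted and placental microRNA list or at 9 NLRP genes. Of the 22 genes on a list of zinc finger genes named ZFP, ZIM, ZSCAN, ZKSCAN, ZBTB or PEG3, which leaves out others such as TSHZ3, 1 had a locus, ZBTB45, with counts of 75 and 96 in DMSO and 58 and 103 in PR-957 (log2 fold change -0.35, edgeR adjusted p = 0.677).

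The other modifications were not used in the choice of loci. H3K4me3 loci overlapped 135 of the 601 H3K27me3 loci (22.5%), H3K27ac loci 132 (22%) and H3K4me1 loci 145 (24.1%), and 380 overlapped none of the 3. On other chromosomes the shares were 16.4%, 15.8% and 11.9%. Wide loci were overlapped more often, and at 10 kb or wider H3K4me3 lay on 62.2% of the chromosome 19 loci and 48% of the others, and H3K4me1 on 57.8% and 41.8%. These lists are shared by the libraries of a modification, so the shares have no replicate.

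At the H3K27me3 loci of chromosome 19, 156 H3K4me3 loci were tested and 0 passed in edgeR, with 7 at an unadjusted p under 0.05 and 0 in DESeq2, where 0.198% of all tested H3K4me3 loci passed. Their median log2 fold change was 0.07, close to the 0.09 at H3K27me3 loci of other chromosomes. Of 143 tested H3K27ac loci 0 passed in edgeR, with 11 at an unadjusted p under 0.05, 0 in DESeq2 and 0.131% of all H3K27ac loci called, and the median was 0.18 against 0.11 at H3K27me3 loci of other chromosomes. Elsewhere on chromosome 19 the medians were 0.00 for H3K4me3 over 917 loci and 0.01 for H3K27ac over 1819, beside 0.145 for H3K27me3 over the whole chromosome. At HCN2, where H3K27me3 rose, the H3K4me3 locus over the promoter had 11.2 and 9.25 CPM in DMSO and 19.8 and 13 in PR-957, both above the controls (log2 fold change 0.68, standard error 0.23, edgeR adjusted p = 0.328). At TSHZ3, where H3K27me3 fell, H3K4me3 had 75.1 and 78.8 CPM in DMSO and 85.8 and 82.2 in PR-957 (log2 fold change 0.13, edgeR adjusted p = 0.865). The H3K4me3 locus at the NFIX promoter had 29.8 and 18.7 against 27.9 and 25, which overlapped.

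H3K4me1 went the other way. Of 174 H3K4me1 loci at the H3K27me3 loci of chromosome 19, 0 were higher and 9 lower in PR-957 in edgeR, where 1.56% of all tested H3K4me1 loci passed in either direction, and the median was -0.18. The median was -0.15 at H3K27me3 loci of other chromosomes, with 4 higher and 37 lower of 1803, and -0.13 elsewhere on chromosome 19, with 4 higher and 25 lower of 1290, so the fall was not confined to H3K27me3 loci. TJP3, a tight junction scaffold protein, had 68.1 and 63.5 CPM in DMSO and 44 and 43.5 in PR-957 (log2 fold change -0.59, edgeR adjusted p = 0.00936). CKM, the muscle creatine kinase, had 9.24 and 13.1 CPM in DMSO and 5.04 and 4.74 in PR-957 (log2 fold change -1.18, edgeR adjusted p = 0.038). KLK1, tissue kallikrein, had 29 and 31.6 CPM in DMSO and 17.2 and 18.9 in PR-957 (log2 fold change -0.73, edgeR adjusted p = 0.0208). At PALM, H3K4me1 fell at the start of the gene, from 706906 to 710760, with 11.2 and 11.2 CPM in DMSO and 5.27 and 4.58 in PR-957 (log2 fold change -1.20, edgeR adjusted p = 0.0336), overlapping the PALM H3K27me3 locus that had a log2 fold change of 0.24 and did not pass. These calls were sensitive to the tool and to each library, as DESeq2 called 2 such loci and edgeR 0 to 4 without any 1 library (0 without DMSO replicate 2). The remaining loci lower in H3K4me1 lie at the starts of TLE6, TBXA2R and LTBP4, at those of NDUFA7 and RPS28 beside KANK3, and within MARK4, and none of the 9 overlaps a locus that passed for H3K27me3. The H3K4me1 libraries also differed most in depth, from 15204186 to 30584219 counts over all overlapping intervals and 4242200 to 8400520 with 1 interval per locus. By either total both PR-957 libraries were below both DMSO libraries. The part of depth in this result was not tested.

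**Figure D5:**
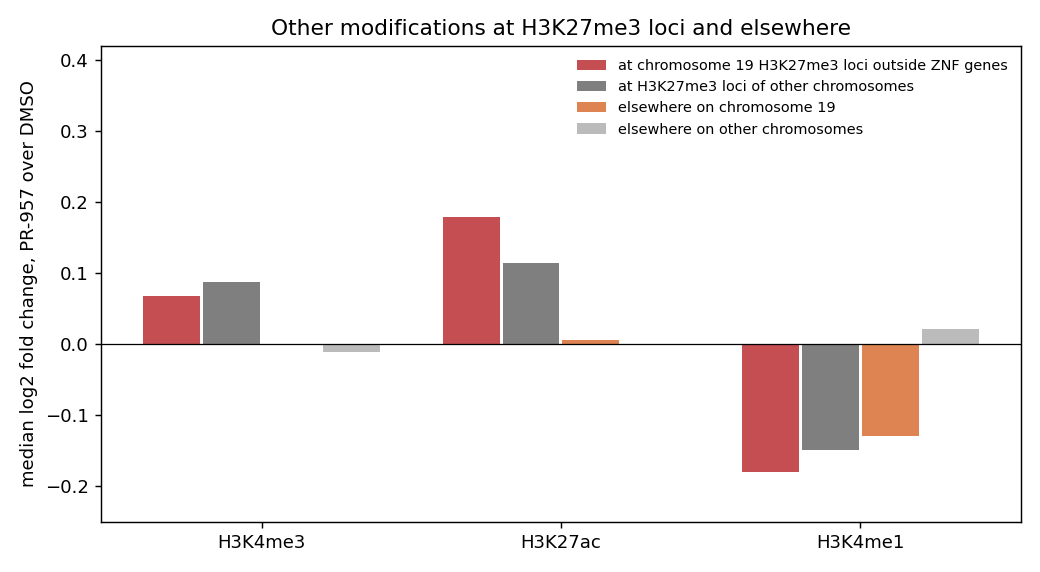
Median log2 fold change, PR-957 over DMSO after TMM scaling, of H3K4me3, H3K27ac and H3K4me1 loci in 4 places: at the chromosome 19 H3K27me3 loci outside ZNF genes, at H3K27me3 loci of other chromosomes, elsewhere on chromosome 19 and elsewhere on other chromosomes. Bars start at 0, and medians over loci have no replicate error. H3K4me1 medians are -0.18, -0.15, -0.13 and 0.02 in that order, whereas H3K4me3 and H3K27ac medians are above 0 at H3K27me3 loci and close to 0 elsewhere.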

How the data were processed

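The deposited H3K27me3, H3K4me3, H3K27ac and H3K4me1 files hold whole-number counts that the authors made on a list of intervals common to its 4 libraries and did not normalize. The submitters' processing notes name hg38, Trimmomatic, Bowtie2, Picard, SAMtools and SEACR. The counter, the handling of duplicates and the making of the lists are not given in the sources used here. IgG samples were not analysed here. Positions follow the files, whose starts may count from 0.

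Overlapping intervals were merged into loci, each with the count of its widest interval. Within a modification all loci of the genome were filtered with filterByExpr (minimum count 10), scaled by TMM and tested for treatment with edgeR's quasi-likelihood method (edgeR 4.0.16, R 4.3.3), without a replicate block and with Benjamini-Hochberg adjustment at 0.05. Tested on simulated counts, it recovered only part of the changed loci. Loci given by name were those past the threshold with separate libraries, the 5 widest, the 5 densest and, per gene list, the 3 of highest count. Others were chosen after their values were seen. One of the densest loci is not reported here. The loci and gene lists were chosen with earlier results of these data known. Promoter sequences were read from a RefSeq table, and all 1903 of chromosome 19 matched hg38.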

Additional observations from a re-analysis of the deposited data

How the results depend on the processing

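The number of chromosome 19 loci that passed moved with the scaling. From 6 (3 higher, 3 lower), it was 3 with median-of-ratios factors (3 and 0), 40 with cyclic loess offsets (40 and 0), 63 with library size only (63 and 0), 4 with DESeq2 (1 and 3), 5 with no count filter (1 and 4), 41 with a mean count of at least 50 (41 and 0), 22 with all intervals in the fit (22 and 0), 7 with GC offsets (0 and 7) and 8 with GC offsets and the replicate block (0 and 8). Count per kb offsets, an alternative chosen after seeing the data, gave 41 (41 and 0). Without 1 library the total ran from 0 to 12, the higher loci from 0 to 7 and the lower from 0 to 10. The replicate block alone gave 7 (3 and 4). Same-numbered libraries did not deviate together (correlation -0.004 over tested loci), so the numbers were not taken as pairs. The log2 fold change at NFIX turned positive under cyclic loess offsets (0.045), count per kb offsets (0.015) and library size only (0.008). That at ONECUT3 also turned positive under these settings (0.265, 0.244 and 0.122). With GC offsets and the replicate block the ONECUT3 value was -0.184 and passed as lower. The distance of the median from that of all loci, 0.118, was above 0 in each setting run, with 0.186 under cyclic loess offsets, 0.183 with a mean count of at least 50, 0.191 with count per kb offsets, 0.125 with the replicate block and 0.112 to 0.147 without 1 library. That of the dense loci from dense loci elsewhere, 0.252, became 0.23 with GC offsets, with or without the replicate block, and 0.213 to 0.269 without 1 library. The gain in the share of counts, 1.14 points, ran from 1.03 to 1.26. The 9 H3K4me1 loci became 3 with cyclic loess offsets, 2 with DESeq2, 12 with the replicate block and 0 to 4 without 1 library. Overlap with H3K4me3, H3K27ac and H3K4me1 fell to 6.99%, 8.15% and 12.5% of loci when at least 50% of the locus had to be covered, and to 6.99%, 10.3% and 16.8% when the other marks were limited to loci above their median count. The cause of these changes was not tested, apart from the fewer libraries or loci in a fit. Depth limits the small loci, with a standard error of 0.59 at the CD22 locus of 9 to 26 counts per library, against 0.081 at HCN2.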
